A study of Homo sapiens with 7 samples.

Results

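MYCN occupancy was examined at the loci of 9 genes that encode translation factors: EIF4E, EIF4G1, EIF4A1, EIF4EBP1, EIF2S1, EIF3B, EEF1B2, EEF2 and EIF5A. Each locus was a window on hg19 that held the gene and about 10 kb on each side, so membership of a locus rests on gene and position. The 9 genes were picked with earlier results of these data known. A peak was assigned to a locus when its summit, the position of highest local signal, fell inside the window. By this rule 41 of the 64657 summits in the list belonged to the 9 loci, in 24 of its 47765 separate intervals.

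The study profiled chromatin bound by MYCN in Kelly cells, a single established neuroblastoma line in which the MYCN gene is amplified and the receptor tyrosine kinase ALK carries an activating mutation. TAE684-sensitive Kelly cells were kept in DMSO for 48 h and TAE684-resistant Kelly cells in the ALK inhibitor TAE684 at 1 µM for 48 h, so resistance and drug go together in this design. Each state had 2 MYCN ChIP samples, and input chromatin came from 1 sample of sensitive and 2 samples of resistant cells. The peak list named for the resistant cells was identical to that of the sensitive cells at all 64657 rows and carried its peak names, so no difference between the states could be measured at these loci. All values below come from the single list of the sensitive, DMSO-treated cells. That list serves both ChIP samples together, and no value has a replicate error.

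Translation of most mRNAs begins when eIF4E binds the cap, eIF4G joins it as a scaffold and the helicase eIF4A unwinds the leader, while 4E-BP1, the product of EIF4EBP1, competes with eIF4G for eIF4E until mTOR phosphorylates it. The initiator tRNA is brought by eIF2, whose alpha subunit comes from EIF2S1 and is phosphorylated under stress, and eIF3, with EIF3B as a core subunit, bridges mRNA and the small ribosomal subunit. During elongation, the product of EEF1B2 recharges eEF1A with GTP, eEF2 moves the ribosome along the mRNA, and eIF5A, which carries the amino acid hypusine made from spermidine, helps peptide bonds to form. MYC proteins bind DNA with MAX, best at the E-box CACGTG, and genes of protein synthesis are a well-known class of their targets.

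The promoters below show how the loci differ in E-boxes. They are 250 bases before the annotated gene start, from RefSeq on GRCh38.p14, written 5′ to 3′ on the gene's strand, with CACGTG in capitals and also its variant CATGTG, which reads CACATG on the other strand. EIF4E and EIF4G1 are shown because they were the only genes among the 8 with a promoter in the RefSeq table that held CACGTG, EEF2 because it held the variant only, and EEF1B2 because its locus had the highest fold enrichment of the 9 and its promoters held neither. The EIF4E stretch is chr4:98929134-98929383 on the minus strand, the EIF4G1 stretch chr3:184314356-184314605 on the plus strand, the EEF2 stretch chr19:3985464-3985713 on the minus strand and the EEF1B2 stretch, the first of 2 entries, chr2:206159359-206159608 on the plus strand.
EIF4E: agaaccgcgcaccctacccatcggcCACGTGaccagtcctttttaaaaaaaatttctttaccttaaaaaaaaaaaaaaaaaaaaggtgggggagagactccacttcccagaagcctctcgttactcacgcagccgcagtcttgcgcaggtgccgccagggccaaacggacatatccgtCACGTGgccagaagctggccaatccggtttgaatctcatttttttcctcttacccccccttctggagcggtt
EIF4G1: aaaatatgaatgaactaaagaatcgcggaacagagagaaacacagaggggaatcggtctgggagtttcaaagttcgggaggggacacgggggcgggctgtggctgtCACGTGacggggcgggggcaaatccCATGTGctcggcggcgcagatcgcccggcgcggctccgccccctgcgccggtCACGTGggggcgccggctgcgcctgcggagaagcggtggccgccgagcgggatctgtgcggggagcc
EEF2: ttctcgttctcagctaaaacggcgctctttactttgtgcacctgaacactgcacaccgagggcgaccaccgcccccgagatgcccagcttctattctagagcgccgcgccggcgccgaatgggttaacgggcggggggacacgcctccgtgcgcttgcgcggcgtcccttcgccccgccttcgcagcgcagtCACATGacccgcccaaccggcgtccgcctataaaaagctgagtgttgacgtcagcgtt
EEF1B2: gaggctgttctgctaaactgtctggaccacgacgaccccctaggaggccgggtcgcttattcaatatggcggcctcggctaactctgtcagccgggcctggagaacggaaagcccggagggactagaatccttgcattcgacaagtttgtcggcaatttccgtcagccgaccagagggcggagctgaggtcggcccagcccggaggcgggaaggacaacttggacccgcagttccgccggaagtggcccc

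The EIF4E promoter held CACGTG at positions -225 and -72, counted from the start to the first letter of the motif. The first of 3 EIF4G1 promoters held it at -144 and -67, with CATGTG between them at -119. The EEF2 promoter held CACATG at -58, and the EIF3B promoter held it at -215 and -3. The promoters of EIF4A1 and EIF2S1 and both entries of EEF1B2 held neither CACGTG nor CATGTG nor CACGCG on either strand. The promoters are on another genome build than the peaks, so whether a summit lies on a given motif was not tested.

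All 9 loci were occupied, and the strongest signal lay near the gene start. At least 1 summit was within 2 kb of the start at 9 of 9 loci, and 25 of the 41 summits (61.0%) were that close. The same shares over all genes and all summits were not computed, for want of an hg19 annotation. Whether such nearness is particular to these loci is therefore not known. Gene starts were taken as the window edge moved in by 10 kb on the side given by the gene's strand. They are thus known to about 1 kb, and less exactly at EIF4E. Of bins of 40 kb over chromosomes 1 to 22 and X, close to the mean window of 40.3 kb, 32.5% held at least 1 summit. Summits past a fold of 10 occurred at 8 of 9 loci, against 8.44% of these bins. The bins include intergenic and unmappable sequence, while the windows are all gene loci. The windows together covered 363 kb and held 113 summits per Mb, which is 5.30 times the 21.3 per Mb of chromosomes 1 to 22 and X.

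The fold enrichment, the authors' ratio of ChIP signal to local background at the summit, had a median of 7.33 over the 41 summits, with quartiles of 4.74 and 10.8. Over the whole list the median was 5.35, with quartiles of 3.90 and 7.54. A fold of at least 10 was reached at 13 of the 41 summits (31.7%, exact binomial 95% CI 18.1 to 48.1), against 12.0% of all summits. At a threshold of 15 no excess was seen, but so few summits pass it that a remaining excess cannot be told from none. That fold was reached at 1 of the 41 (2.44%, exact binomial 95% CI 0.062 to 12.9), against 2.71% of all summits. ChIP fragments, recovered as described below, numbered at most 280 at any summit of the list. At the strongest summits of EIF3B, EIF4G1 and EIF5A, 280 fragments would give folds of 10.0, 12.9 and 12.9, all below 15. None of the 41 reached 20 (0%, exact binomial 95% CI 0 to 8.60), and 0.778% of the list did. Folds of at least 20 are thus too rare in the list to be told apart from 0 with 41 summits. These intervals cover counting error only, and summits of 1 interval are not independent.

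**Figure D1:**
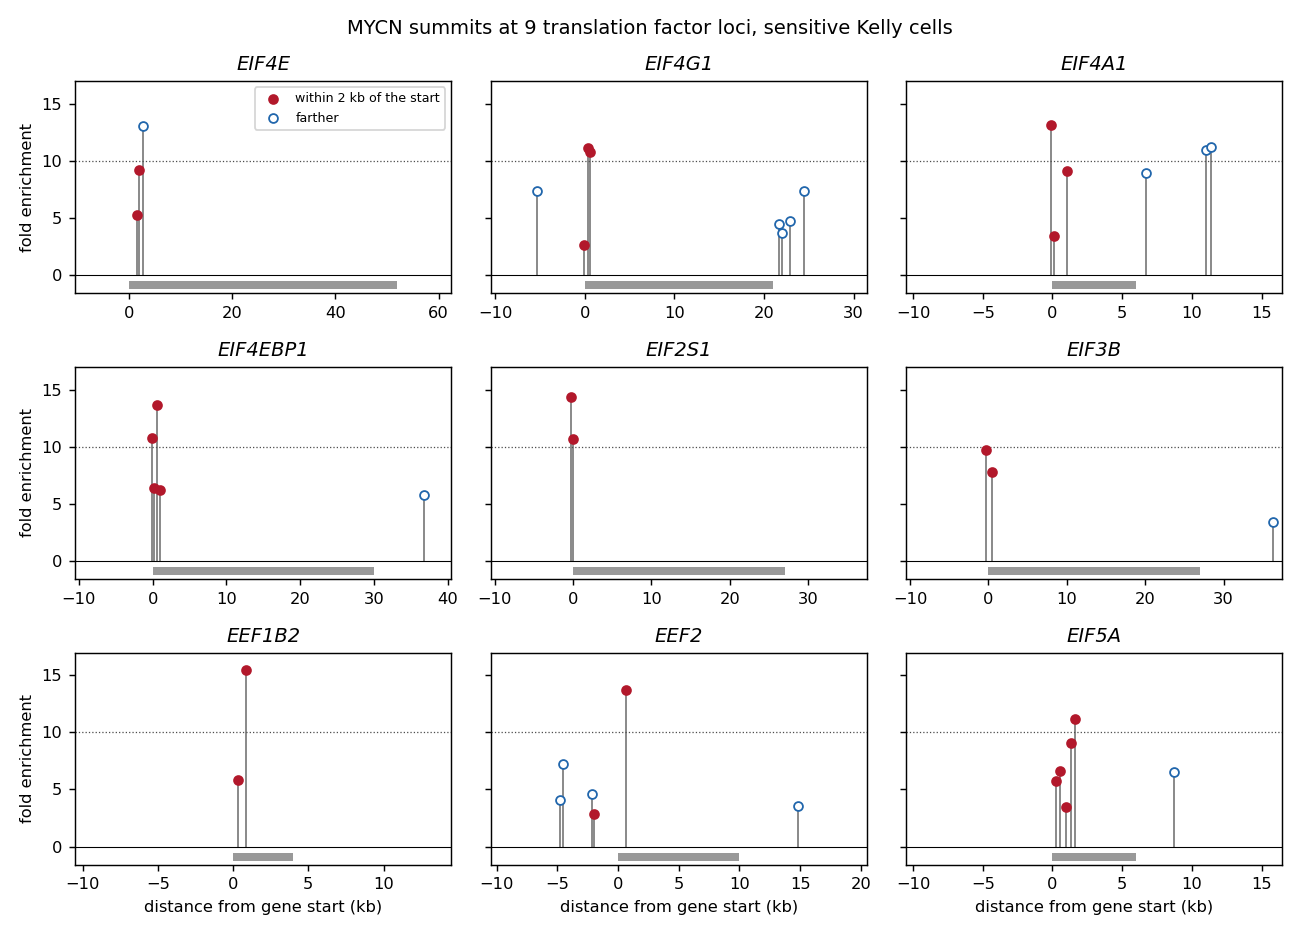
MYCN summits at each of the 9 loci: distance from the gene start in kb (horizontal, positive into the gene) against fold enrichment (vertical), with the gene span as a grey bar. Filled points lie within 2 kb of the start and open points farther, and the dotted line marks a fold of 10. The highest point of each panel lies between -0.31 and 2.60 kb from the start, with 2.60 at EIF4E, whose start is less exact.

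The number of ChIP fragments over each summit and the local background, in units of input fragments, were recovered from the deposited fold enrichment and p-value. The background was a whole number at 26 of the 41 summits and at 58.9% of the list. Elsewhere it cannot be a plain count of input fragments under the summit. Exact Poisson 95% intervals, given below as CI with no other name, cover the counting of ChIP fragments only and hold the background fixed. The 41 summits had a median of 121 ChIP fragments (quartiles 71 and 197), against 63 over the list. Their median background was 9 input fragments, against 7.56 over the list, where the lowest background was 1.61. Both ChIP signal and local background were therefore higher at these loci than at the typical summit.

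**Figure D2:**
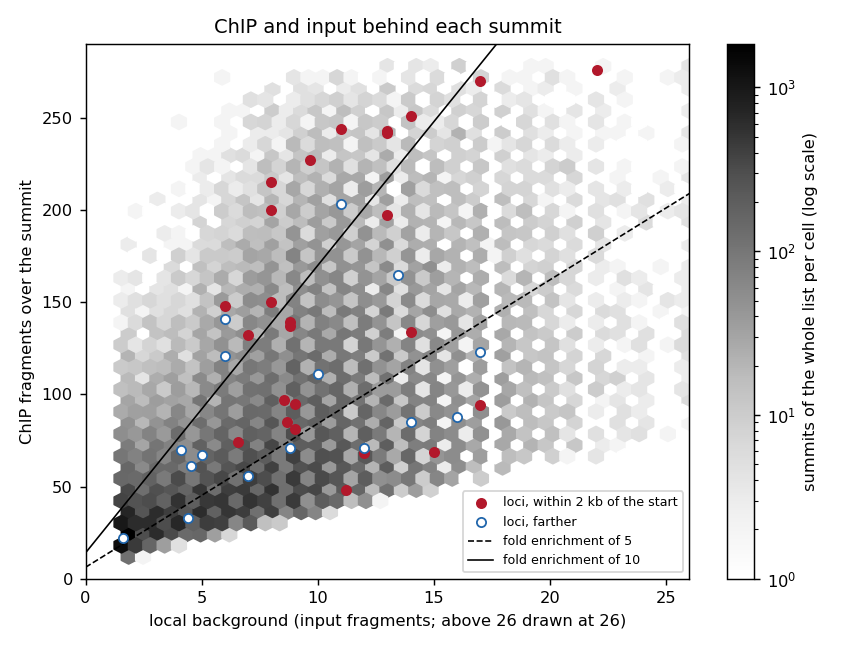
ChIP fragments over the summit (vertical) against the local background in input fragments (horizontal). Grey cells count all 64657 summits on a log scale, points are the 41 summits of the loci, and lines mark folds of 5 and 10. The filled points within 2 kb of a start reach 276 fragments, at EIF3B, where the background was 22.

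Among the cap-binding and scaffold factors, EIF4E had the simplest pattern. Its window (chromosome 4, 99790000 to 99862000) held 1 interval, from 99849243 to 99850706, with 3 summits. The fold was 13.1 at 99849406 (141 ChIP fragments, background 6), 9.18 at 99850011 (139 fragments, background 8.82) and 5.30 at 99850557 (81 fragments, background 9). The fold thus differed between the first 2 of these summits at almost the same ChIP signal, with a lower local background at the stronger one. The background of 8.82 is not a whole number, so less input directly under the stronger summit is not shown. The strongest lay 2.60 kb inside the gene, the only one of the 9 strongest summits more than 2 kb from the start. The EIF4E span implied by the window, 52 kb, is longer than the 49.9 kb of the RefSeq gene, so its start is less exact than the others. With all starts moved 1 kb downstream, the strongest summit lay within 2 kb at 9 of 9 loci, EIF4E included. The exception thus depends on where the start is placed.

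EIF4G1 had the most summits, 8 in 6 intervals (chromosome 3, 184022000 to 184063000). Its strongest interval, from 184032140 to 184033202, held summits at 184032393 and 184032625, with folds of 11.2 (CI 9.81 to 12.7) and 10.8 (CI 9.51 to 12.2). These stood on 242 and 251 ChIP fragments over backgrounds of 13 and 14, so the pair did not differ beyond counting error. A narrow interval of 145 bp just before it, with its summit at 184031912, had the lowest fold of all 41 summits, 2.61. Within the gene no further summit was called until its far end. There, 4 summits between 184053721 and 184056471 had folds of 3.70 to 7.40. They lay past the end of the gene as its window places it, on the side where FAM131A follows. A single summit upstream at 184026720, on the side of the proteasome subunit gene PSMD2, had a fold of 7.33.

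EIF4A1 was bound both at its start and beyond its end (chromosome 17, 7466000 to 7492000). The interval over its start, from 7475670 to 7476329, held a summit of fold 13.1 (CI 11.5 to 14.9, 244 fragments) and, at 7476140, one of fold 3.40 on 94 fragments. The local background was also higher at the weaker summit, 17 against 11. A separate interval about 1 kb inside the gene reached 9.10 at 7477022. Past the end of the gene as its window places it, 1 summit at 7482732 had a fold of 8.95. Farther on, an interval from 7486644 to 7487535 held folds of 10.9 at 7487012 and 11.2 at 7487389. That last interval was nearly as strong as the start, and CD68 and MPDU1 are the coding genes that follow EIF4A1 on this side, with SOX15 beyond them. In the RefSeq table SENP3 precedes EIF4A1, and the readthrough transcript SENP3-EIF4A1 spans both.

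EIF4EBP1, the inhibitor in this group, carried the widest interval of the 9 loci. It ran for 2033 bp on chromosome 8, from 37887459 to 37889491, and 99.7% of all intervals in the list were narrower. It held 4 summits, at 37887866, 37888199, 37888536 and 37889065, with folds of 10.8, 6.39, 13.7 and 6.19. High and low summits alternated along the interval. The ChIP fragments were 150, 74, 148 and 95 in the same order, and the background stayed between 6.02 and 9. The 27 kb of the gene past 3 kb from its start had no summit. A single weak summit past its end, at 37924803, had a fold of 5.80 on 22 fragments, the fewest of the 41, over the lowest background of the list.

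The EIF2S1 and EIF3B loci each had 1 interval at the start, and both starts face a neighbouring gene. EIF2S1 (chromosome 14, 67817000 to 67864000) had only 2 summits, in the interval from 67826455 to 67827502. Their folds were 14.4 (CI 12.4 to 16.5, 200 fragments) at 67826751 and 10.7 (CI 8.98 to 12.7, 132 fragments) at 67827058, so both passed 10 and the whole gene span beyond the start was without a summit. EIF3B (chromosome 7, 2384000 to 2431000) had 2 summits in an interval of 1571 bp from 2393412 to 2394982 and a weak one, of fold 3.38, near the far edge of the window at 2430274.

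EIF3B combined the highest ChIP signal of the loci with the lowest peak fold. Its 2 start summits stood on 270 and 276 ChIP fragments, higher than at 99.86% and 99.96% of all summits, yet their folds were 9.68 (CI 8.56 to 10.9) at 2393691 and 7.74 (CI 6.86 to 8.71) at 2394454. The background under them was 17 and 22 input fragments, higher than at 96.1% and 99.5% of all summits. No summit of the list had more than 280 ChIP fragments. At these backgrounds that number would give folds of 10.0 and 7.85, below the upper limits of both intervals. Those limits stand for 304 and 311 fragments, which no summit of the list had.

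The elongation factor genes held the strongest single summit of the 9 loci and a locus with several weak summits around a strong start. EEF1B2 (chromosome 2, 207014000 to 207038000) had 1 interval, from 207023820 to 207025052, with folds of 5.80 at 207024301 and 15.4 at 207024838. The second was the highest fold of the 41 (CI 13.4 to 17.6), above 97.6% of the list. It stood on 215 fragments over a background of 8, and the first on 134 over 14. At EEF1B2, as at EIF4E, the summit farther inside the gene had the higher fold and the lower background.

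EEF2 (chromosome 19, 3966000 to 3996000) had a single-summit interval at its start, from 3984963 to 3985688, with a fold of 13.8 (CI 12.0 to 15.6) on 227 fragments. The other 5 summits of its window were weaker, with 33 to 71 fragments. Of these, 4 lay upstream, with folds of 2.83 at 3987981, 4.61 at 3988139, 7.27 at 3990535 and 4.09 at 3990755. The remaining one, of fold 3.58 at 3971202, lay past the end of the gene on the side of DAPK3. The EEF2 start thus stood 3.20 times as high in ChIP fragments as the next summit of the same window.

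EIF5A (chromosome 17, 7200000 to 7226000) showed a row of 5 summits over its first 2 kb, in 2 neighbouring intervals. The folds along the gene were 5.74 at 7210284, 6.63 at 7210511, 3.43 at 7210966, 9.05 at 7211352 and 11.2 at 7211633. The ChIP fragments were 85, 97, 68, 137 and 243. The strongest summit was thus the one farthest inside the gene, at 1.63 kb. RefSeq lists 6 promoters for EIF5A, and which start each of these summits belongs to was not tested. A summit of fold 6.56 at 7218748 lay past the end of the gene, where GPS2 and NEURL4 follow.

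Ordered by their strongest summit, the loci ran from EIF3B (9.68) through EIF4G1 (11.2), EIF5A (11.2), EIF4E (13.1), EIF4A1 (13.1), EIF4EBP1 (13.7), EEF2 (13.8) and EIF2S1 (14.4) to EEF1B2 (15.4). The range was narrow. At the backgrounds of these summits, 280 fragments, the most of any summit in the list, would give folds from 10.0 at EIF3B to 25.8 at EIF4E. It would give 12.9 at EIF4G1 and EIF5A, 15.05 at EIF4A1, 16.9 at EEF2, 20.1 at EIF2S1 and EEF1B2 and 25.7 at EIF4EBP1. The order and range of the folds thus rest on background as well as on ChIP signal. The counting intervals overlapped for 8 of the 8 neighbouring pairs in this order and for 28 of all 36 pairs. Of the 8 pairs that did not overlap, 6 set EIF3B against a stronger locus, and the others set EIF4G1 and EIF5A against EEF1B2. The counting intervals take no account of the list's highest fragment number. By ChIP fragments in place of fold, EIF3B came first with 276 and EIF4E last with 141, and the most fragments and the highest fold fell on the same summit at 6 of 9 loci.

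The intervals at the gene starts were broad and held several summits. Of 13 intervals with a summit within 2 kb of a start, 11 were at least 500 bp wide (84.6%, exact binomial 95% CI 54.6 to 98.1), against 26.1% of all intervals. Their median width was 1048 bp, against 279 bp over the list. At least 2 summits were found in 10 of the 13, against 23.6% of all intervals, and neighbouring summits inside them were a median of 335 bp apart, against 298 bp over the list. The strongest summit had a fold of at least 10 in 8 of the 13 (61.5%, exact binomial 95% CI 31.6 to 86.1), against 15.1% of all intervals. The exceptions in width were the 145-bp interval at EIF4G1 and a 445-bp interval upstream of EEF2. The 13 intervals were chosen by nearness to a start, which an interval with several summits meets more easily. Intervals at the starts of other genes were not set beside them, so these traits cannot be called particular to the loci.

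**Figure D3:**
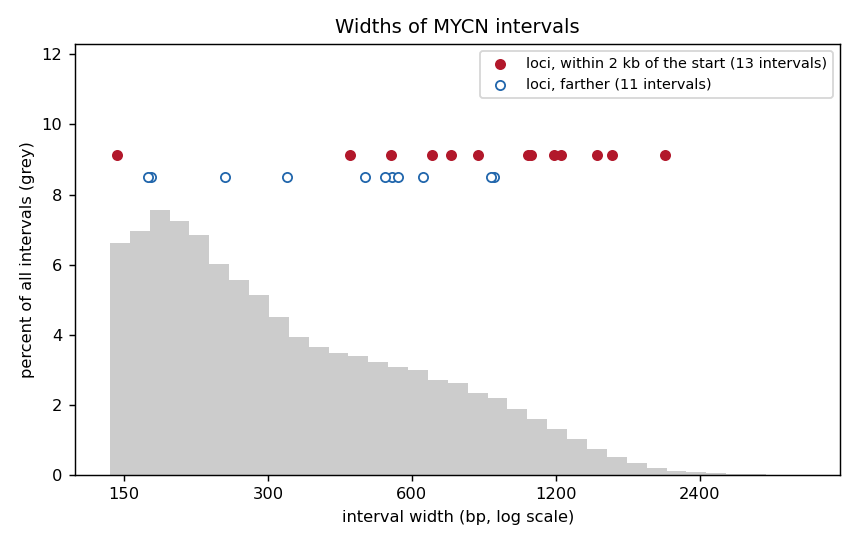
Widths of MYCN intervals in bp on a log scale. Grey bars give the percent of all 47765 intervals per width class, and points are the intervals of the loci (their height has no meaning). The filled points, intervals within 2 kb of a start, have a median of 1048 bp, and the open points, farther intervals, one of 526 bp.

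Away from the starts the loci were closer to the rest of the list. The 16 summits more than 2 kb from a start had a median fold of 6.18 and a median of 78 ChIP fragments, while the 25 closer ones had 9.10 and 139. Over the whole list these medians were 5.35 and 63. The median background was 7.91 and 9.66 input fragments, against 7.56 over the list. Folds of 10 or more were seen at 3 of the 16 and at 10 of the 25. The 3 were the strongest summit of EIF4E, whose start is less exact, and the pair past the end of EIF4A1. Of the 11 intervals with no summit within 2 kb of a start, 1 held a fold of at least 10 (9.09%), against 15.1% of all intervals. In width they still differed from the list, with 6 of the 11 at least 500 bp wide (54.55%), against 26.1%. Whether these farther summits belong to neighbouring genes was not tested.

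No summit was called in the gene bodies past their first 3 kb, with gene ends placed by the windows. From 3 kb past the start to the end of the gene, the 9 spans together covered 156 kb, and 0 of the 41 summits fell there. The ends, like the starts, are known to about 1 kb. A summit at EIF4A1 lay 6.73 kb from the start, with the span ending at 6.0 kb. Another at EIF4G1 lay at 21.72 kb, with the span ending at 21.0 kb. The count of 0 thus depends on where the ends are placed. With 3 counts taken as the upper limit of a count of 0, up to 19.2 summits per Mb are allowed. The longest of these stretches were 49 kb at EIF4E, 27 kb at EIF4EBP1 and 24 kb each at EIF2S1 and EIF3B. The distance of 3 kb was chosen after the values were seen. Past 2 kb, 1 summit lay in the spans, the strongest of EIF4E, whose start is less exact. The count of 0 is therefore no test of a lower density.

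At 3 of the 8 loci whose strand the RefSeq table gives, the strongest summit lay near a start that faces the start of another gene. The share of all genes with such a start was not computed, so whether 3 of 8 is unusual is not known. By RefSeq order and strand, EIF2S1 faces ATP6V1D, a subunit gene of the vacuolar proton pump, EIF3B faces SNX8, a sorting nexin gene, and EEF1B2 faces NDUFS1, a subunit gene of respiratory complex I. These loci had the highest (EEF1B2), the next highest (EIF2S1) and the lowest (EIF3B) peak fold of the 9. The EIF2S1 start also lies within a further coding gene, GPHN, which spans EIF2S1 in RefSeq. A summit at such a start cannot be assigned to 1 of the genes from these data. Small nucleolar RNA genes lie inside EIF4A1, EIF4G1, EEF2 and EEF1B2, by the same table.

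Most of the promoters searched held no CACGTG. It was found in a promoter of 2 of the 8 genes with a RefSeq entry, against 10.9% of 15843 protein-coding genes, with both strands searched over 300 bases from 250 before to 50 after the start. The variant CATGTG was found at 4 of the 8, namely EEF2, EIF3B, EIF4G1 and EIF5A, against 11.5% of protein-coding genes. CACGCG was found at EIF5A only, against 18.1%. Any CANNTG, which includes CACGTG and CATGTG, was found at 5 of the 8, against 70.5%. EIF5A and EIF4G1 have 6 and 3 entries, which gives them more bases to hold a match. Sequence outside these stretches, under the summits farther into the genes included, was not searched.

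Other genes of translation were searched in the same table. Of 54 listed initiation, elongation, termination and regulatory factors, 44 had an entry, and 12 of these held CACGTG (27.3%), beside the 10.9% of protein-coding genes. They were the helicase gene EIF4A3 and the helicase cofactor genes EIF4B and EIF4H, the inhibitor EIF4EBP3, the eIF3 subunit genes EIF3F and EIF3K, the exchange factor gene EIF2B3, EIF1B, EEFSEC, EEF2K, EIF5A2 and DOHH, which encodes an enzyme of hypusine synthesis. CATGTG was found at 2 of the 44 (4.5%), against 11.5% of protein-coding genes, so its share was lower here, unlike at the loci. CACGCG was found at 9 of the 44 (20.45%), against 18.1%, and any CANNTG at 35 (79.55%), against 70.5%. MYCN peaks at these genes were not analysed here, because their positions on hg19 were not at hand. The promoters of the 8 matched loci had a median GC content of 63.0% over 16 entries, close to the 62.3% of all protein-coding entries.

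**Figure D4:**
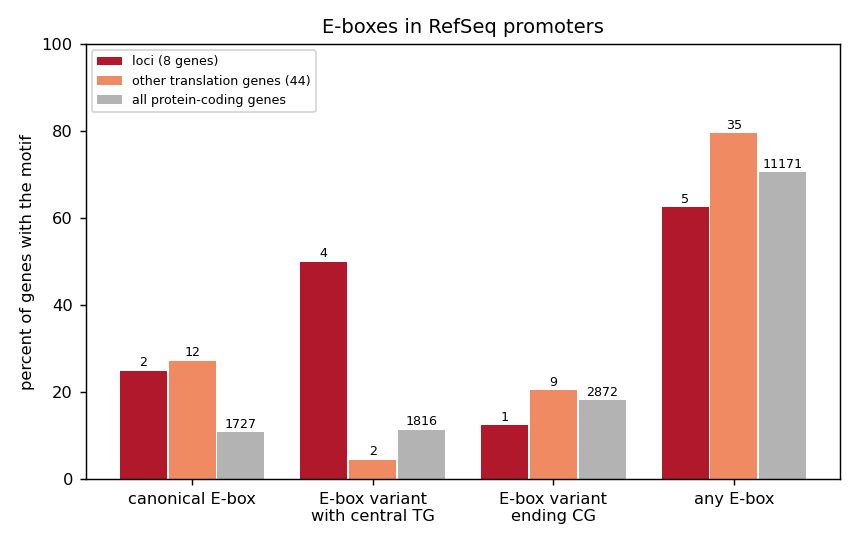
Percent of genes with an E-box in a RefSeq promoter of 300 bases, for the loci, the other translation genes and all protein-coding genes, with the number of genes above each bar. The canonical E-box is CACGTG, the variant with central TG is CATGTG, the variant ending in CG is CACGCG, and any E-box is CANNTG. The bar of the loci is highest against all protein-coding genes for CATGTG, at 4 of 8 genes.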

How the data were processed

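MYCN ChIP-seq of Kelly cells was used as 1 narrowPeak list on hg19. Per the submitters' processing notes, the tools were MACS2 2.1.1, deepTools 2.2.4, Picard, SAMtools 1.3.1 and STAR 2.5.1b, with no settings. The deposited fold enrichment is a ratio, at each summit, of ChIP pileup to local background. The deposited −log10 p-values and −log10 q-values belong to the same position, and the deposited score is 10 times the −log10 q without decimals. Neither the way the authors combined the 2 ChIP samples nor the handling of duplicate reads is stated in the sources used here.

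The loci, gene lists and measures were chosen with earlier results of these data known. Fragment numbers were solved from fold and p with 1 ChIP scale, 0.641, which gave a whole number at 64657 of 64657 summits within 0.0005 in −log10 p. It was tested on simulated data first. No summit at the loci had more than 1 solution. Library depths are not in the files. Positions count from 1. No hg19 annotation was used, so exons and introns were not assigned. Strands, neighbours and promoters came from RefSeq tables on GRCh38.p14. EIF4EBP1 had no promoter entry, and its strand is textbook knowledge. All 9 loci are named, each with its strongest summit, and every summit of loci with up to 6. No p-value was computed, since there is 1 list. Shares carry exact (Clopper-Pearson) 95% intervals. Alternatives were other q and fold thresholds, window edges, distances, bins and motifs. Python 3.11.15, numpy 2.4.6, pandas 2.3.3, scipy 1.17.1 and matplotlib 3.10.9 were used.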

Additional observations from a re-analysis of the deposited data

How the results depend on the processing

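No paired analysis was possible because the list does not separate the ChIP samples. Leaving out a replicate was not possible either. The number of summits at the loci, 41, was 40 and 36 at −log10 q thresholds of 5 and 10 and 36 with flanks of about 5 kb. It fell to 27 within the gene spans plus 1 kb and to 24 when intervals were counted. Counts of single loci moved by over 1.5 times at 2 and 5 of the 9 loci under these last settings and at none under the others. The median fold stayed between 7.33 and 9.10 under these settings. The share of summits past the fold threshold, 31.7% at 10 against 12.0% of the list, was 43.9% at 8 against 21.9%. At 15 it was 2.44% against 2.71%, so the excess at 8 and 10 did not hold there. At the strongest summits of EIF3B, EIF4G1 and EIF5A, the list's highest number of ChIP fragments would give folds below 15. The share of 40-kb bins with a summit, 32.5%, was 36.3% when only 1-Mb bins with a summit were counted. The strongest summit lay within 2 kb of the start at 8 of 9 loci, at 7 within 1 kb and at 9 within 5 kb, at 8 by ChIP fragments, and at 7 and 9 with the start moved by 1 kb up- or downstream. Past 2 kb in place of 3 kb from the start, 1 summit lay in the gene spans, the strongest of EIF4E. CACGTG was found at 2 genes also with only the bases before the start, while CANNTG was found at 5, CATGTG at 4 and CACGCG at 1. The moved start, both distances for the gene body and the other distances for medians and interval counts were chosen after seeing the data. The cause of these shifts was not tested, beyond the fewer or other sites that each setting counts.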
